A study of Mus musculus with 6 samples.

Results

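Chemokine receptors are the cell-surface proteins that read chemokine gradients and steer lymphocytes between blood and tissue. The 9 receptor genes Ccr1, Ccr2, Ccr4, Ccr6, Ccr8, Ccr9, Cxcr3, Cxcr4 and Cxcr6 were taken by symbol from a table of 27179 genes, and all 9 were found in it. They were measured in group 2 innate lymphoid cells (ILC2s) of mice, lymphocytes of barrier tissues that lack antigen receptors and secrete type 2 cytokines. The cells had been sorted through a gate negative or a gate positive for Chat, which encodes the enzyme that makes acetylcholine, and each gate gave 3 samples. The comparison asked which receptor transcripts differ between ILC2s with and without this marker. Tissue, strain, genotype, age, any stimulus and the way Chat was detected are not stated in the labels. The labels do not tie samples of the same gate to different animals, and the p-values therefore reflect the spread between these samples alone, which may be technical.

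Chemokine receptors are G protein-coupled receptors and signal through inhibitory G proteins of the Gi class. G protein beta and gamma subunits then engage a lipid kinase, and exchange factors such as Dock2 activate Rac and drive migration. Regulator of G protein signalling (Rgs) proteins, receptor kinases and arrestins end the signal. In ILC2s, chemokine receptors are studied for homing to lung, skin and gut and for exit from bone marrow.

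Libraries held 37154269 to 50361306 counts, and the 9 receptors together took 0.464% to 0.647% of them. Chat, on which the cells were sorted, stood at 16.6, 26.5 and 17.5 CPM (counts scaled to library size) in Chat negative libraries 1 to 3, against 188, 169 and 204.5 in positive libraries 1 to 3. The log2 change of this gene was 3.21 (SE 0.21, edgeR adjusted p = 0.0174, or 0.0961 with the replicate number as a block). Defining ILC2 transcripts were abundant in every library, with Gata3 at 1603 to 2545 CPM, Il2ra at 3619 to 5777 and Il5 at 5732 to 13770, although Thy1 reached only 5.19 to 19.6. Of the 10 ILC2 markers, none passed the edgeR test between gates, and 2 (Il5 and Il1rl1) rose in edgeR with the replicate number as a block, calls that limma-voom with the block and the blocked fit without robust dispersions did not make. Of 62 marker genes listed for 10 other kinds of cell, 22 could be tested and none passed with or without that block. Summed CPM of those lists in Chat negative and Chat positive libraries were 38.7 to 53.6 and 43.2 to 55.6 for T cells (led by Cd3g and Cd28), 66.2 to 74.4 and 68.6 to 85.9 for B cells (led by Cd79b and Cd22), and 0.0922 to 0.510 and 0.0497 to 0.216 for ILC1 and NK cells (led by Tbx21 and Eomes). They were 4.24 to 7.32 and 4.97 to 8.42 for ILC3 (Il22 and Il17f), 1.68 to 6.19 and 2.17 to 4.33 for monocytes and macrophages (Adgre1 and Ly6c2), and 0.507 to 8.68 and 0.622 to 7.73 for dendritic cells (Cd209a and Zbtb46). They were 2.67 to 14.8 and 2.21 to 14.3 for neutrophils (Ly6g and Mpo), at most 0.347 for eosinophils (Siglecf and Prg2), and 83.3 to 164.6 and 89.9 to 153 for epithelium and stroma (Pecam1 and Epcam). Mast cell and basophil markers summed to 30.8 to 203 and 25 to 147, nearly all from Mcpt8, with Cpa3, Mcpt4 and Tpsb2 at 0 counts. The part these other transcripts play in the receptor values was not tested. In sorted bulk samples, fewer cells of a type and less RNA per cell cannot be told apart.

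Levels of the receptors spread widely when CPM were divided by the length of the longest annotated transcript. Cxcr6, the receptor for the membrane-bound chemokine CXCL16, stood alone at the top with 2129 CPM per kilobase ± 336 (SD over 6 libraries) and took 73.5% to 79.0% of the 9 receptors' counts. Ccr8, Ccr2 and Ccr1 followed at 144.7 ± 55.5, 132.5 ± 31.9 and 113.6 ± 16.9 CPM per kilobase. Their ranges over libraries overlapped, so no order among these 3 could be read on this scale. That depends on the transcript lengths used. In CPM not divided by length, Ccr2 (558 to 1044) lay above both Ccr1 (249.1 to 377) and Ccr8 (103.5 to 271). Per kilobase, Ccr4, which binds CCL17 and CCL22, came next at 11.2 ± 2.65. The other 4 lay under 1 CPM in every library, with Cxcr4 at 0.334 ± 0.160, Ccr6 at 0.132 ± 0.0935, Ccr9 at 0.0382 ± 0.0296 and Cxcr3 at 0.00666 ± 0.0163 CPM per kilobase. Ranges of Cxcr4 and Ccr6, of Ccr6 and Ccr9, and of Ccr9 and Cxcr3 overlapped between neighbours.

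**Figure D1:**
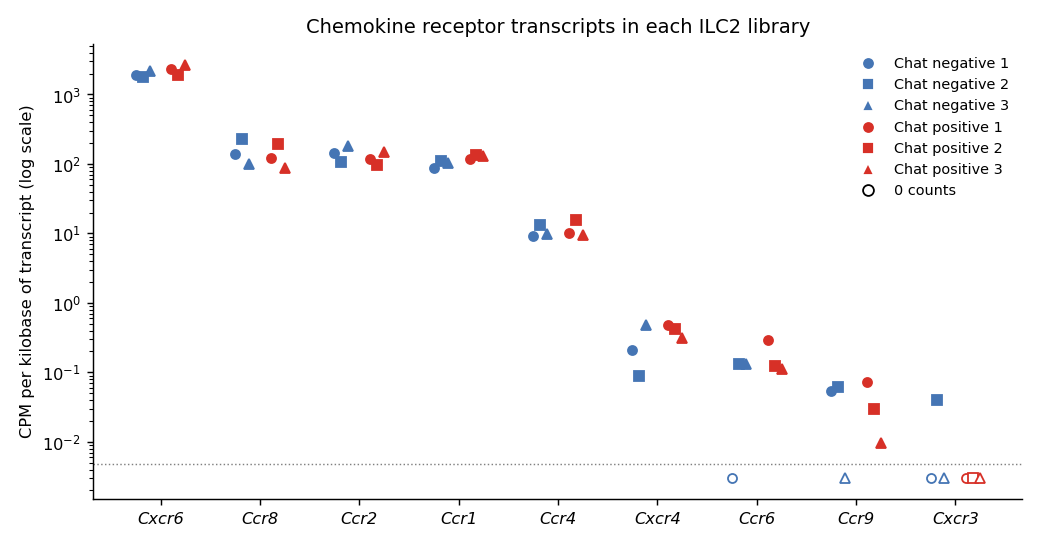
Level of each receptor in each library, in CPM per kilobase of transcript on a log axis. Blue marks are Chat negative and red marks Chat positive libraries, shapes give the replicate number, and open marks at the bottom are libraries with 0 counts. Cxcr6 lies between 1777 and 2685 in all 6 libraries, Ccr4 between 9.10 and 15.8, and no library of Cxcr4, Ccr6, Ccr9 or Cxcr3 exceeds 0.488.

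Cxcr6 (Entrez 80901, mm10 chromosome 9, 123806477 to 123811754) lies inside the span of Fyco1, whose exons do not overlap its own. It stood at 3655, 3389 and 4197 CPM in negative libraries 1 to 3, against 4381, 3619 and 5120 in positive libraries 1 to 3. Chat positive libraries were higher for each replicate number, but the gates overlapped because Chat negative 3 exceeded Chat positive 2. The log2 change, Chat positive minus Chat negative, was 0.22 (SE 0.16, 95% interval -0.16 to 0.60), and the quasi-likelihood test of edgeR, adjusted by Benjamini-Hochberg over 12967 genes, gave an adjusted p of 1.00. Taking the replicate number as a block gave 0.21 (SE 0.05) and an adjusted p of 0.114. Without Chat positive 3 the change was 0.08.

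Ccr1 was the only receptor whose gates did not overlap. This receptor for CCL3 and CCL5 (Entrez 12768, chromosome 9, 123962126 to 123968692) stood at 249.1, 312 and 295 CPM in negative libraries 1 to 3, against 330, 377 and 370 in positive libraries 1 to 3. All 3 Chat positive libraries were above all 3 Chat negative ones, a ratio of means of 1.26. Its log2 change was 0.33 (SE 0.12, 95% interval 0.05 to 0.61), with an unadjusted p of 0.0266 and an adjusted p of 1.00 in edgeR. Among all genes tested, 2.43% had an unadjusted p under 0.05, and 8.14% had gates that did not overlap (4.53% with Chat positive higher and 3.61% with it lower), beside 1 of the 7 tested receptors for each. None of the 7 passed the adjusted threshold of 5%, which 0.00771% of genes passed, namely Chat alone. With the replicate number as a block Ccr1 rose, with a log2 change of 0.34 (SE 0.05, adjusted p = 0.0455, above the negative partner for 3 of 3 numbers), in an edgeR fit that called 0.339% of genes. That call was not kept by limma-voom with the block (adjusted p = 0.0859), by the blocked fit without robust dispersions (0.109), or without the libraries of number 1 (0.484) or number 2 (0.132). It was kept without those of number 3 (0.00257). DESeq2 with the block also called Ccr1 (5.12e-05), together with Cxcr6 (0.0264), Ccr2 (0.0105) and Ccr8 (0.0281). That fit called 476 of the 12967 genes kept by the filter and gave no adjusted p for Ccr9 or Cxcr4. DESeq2 on gate alone called 0 of the receptors.

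Ccr2, the receptor for CCL2 that is best known from monocytes (Entrez 12772, chromosome 9, 124101918 to 124109140), ran the other way. It stood at 821, 603 and 1044 CPM in negative libraries 1 to 3, against 670, 558 and 857 in positive libraries 1 to 3. Chat positive was lower for 3 of 3 numbers, with wide overlap between the gates. The log2 change was -0.24 (SE 0.24, 95% interval -0.80 to 0.31) and its edgeR adjusted p was 1.00, or 0.108 with the block. Without Chat negative 3 the change was -0.04. Of the monocyte markers, Csf1r and Lyz2 never exceeded 5 counts, while Adgre1 had 167, 43 and 90 counts in negative and 76, 69 and 36 in positive libraries (log2 change -0.71, edgeR adjusted p = 1.00). Their part in the Ccr2 values was not tested.

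Sequence shared with other genes bears on how reads are assigned. Of all 50-base windows in Ccr2 transcripts, 1.91% also occur in other genes, and of those in Ccr4 transcripts 0.465%. No such window was found for Ccr1, Ccr6, Ccr8, Cxcr3, Cxcr4 or Cxcr6. Of the 50-base windows of Ccr9, 20.1% occur in other genes. Its exons overlap those of Slc6a20a and AC165425.1 on the opposite strand and of Gm17200 on the same strand. The strand setting of the counting is not known, and it would not separate the same-strand overlap. The few counts of Ccr9 may therefore not all be its own.

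Ccr8 and Ccr4, both receptors linked to type 2 and regulatory lymphocytes, varied more with the replicate number than with the gate. Ccr8, which binds CCL1 and CCL8 (Entrez 12776, chromosome 9, 120092133 to 120094906), stood at 161, 271 and 117 CPM in negative libraries 1 to 3. Its Chat positive values were 142, 225 and 103.5 CPM. The libraries numbered 2 were the highest in both gates and those numbered 3 the lowest, and the gates overlapped throughout. The log2 change was -0.23 (SE 0.37, 95% interval -1.11 to 0.66) and its edgeR adjusted p was 1.00, or 0.126 with the block. Its sign turned without Chat negative 2 (log2 change 0.17).

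Ccr4 (Entrez 12773, chromosome 9, 114490316 to 114505476) stood at 25.5, 36.7 and 27.3 CPM in negative libraries 1 to 3, against 28.2, 44.3 and 26.8 in positive libraries 1 to 3. Number 2 was again the highest in both gates. The log2 change of this gene was 0.15 (SE 0.24, 95% interval -0.42 to 0.72) and its edgeR adjusted p was 1.00, or 0.541 with the block. Without Chat positive 2 the sign turned, to -0.12.

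**Figure D2:**
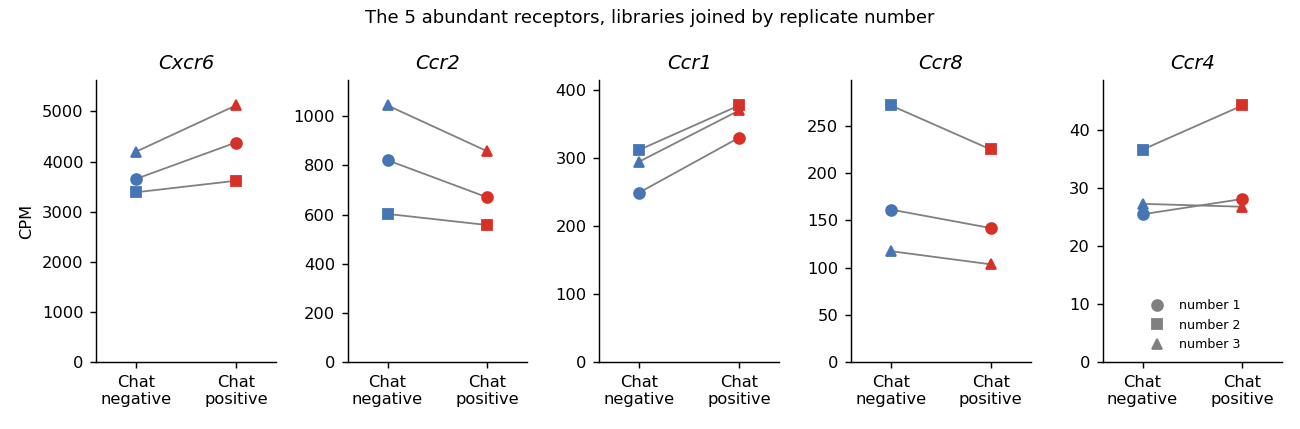
CPM of the 5 receptors averaging at least 10 CPM, in Chat negative (blue) and Chat positive (red) libraries, with lines joining libraries of the same replicate number and each vertical axis starting at 0. Lines for Cxcr6 and Ccr1 go up and those for Ccr2 and Ccr8 go down for all 3 numbers, while Ccr8 in the number 2 libraries (271 and 225 CPM) lies far above the others.

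Set side by side, the log2 range between the 3 numbers' means was 1.16 for Ccr8, 0.71 for Ccr2, 0.59 for Ccr4, 0.40 for Cxcr6 and 0.26 for Ccr1, where the median over the 8376 genes averaging at least 10 CPM was 0.32. Differences between the gates' mean log2 CPM were -0.21, -0.23, 0.13, 0.21 and 0.34 in the same order. For Ccr1 alone among these 5, the difference between gates was larger than the range between numbers. A range and a difference of means are unlike measures, and the share of all genes for which this holds is not given. Of the 5, 2 lay higher in the positive gate for 3 of 3 numbers and 2 lay lower. Among all genes tested, 22.3% were higher and 17.3% lower for 3 of 3 numbers. What the replicate number stands for is not given in the labels.

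Other transcripts moved with the replicate number too. Ccr10, a receptor of skin and mucosal lymphocytes, stood at 6.22, 13.1 and 3.08 CPM in negative libraries 1 to 3, against 4.60, 16.1 and 2.39 in positive libraries 1 to 3. Ccr7, the lymph node homing receptor, was named after its values were seen, and followed the same order in both gates, from 2.20 to 11.3 and from 3.53 to 13.8 CPM. Mcpt8 went the opposite way, at 134, 30.8 and 203 CPM in negative and 124, 24.9 and 147 CPM in positive libraries. Their part in the Ccr8 and Ccr4 values was not tested.

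Genes with the most similar profile were sought for the 3 receptors with the largest spread, by the root mean square difference of centred log2 CPM over the 6 libraries among 8375 other genes averaging at least 10 CPM. Closest to Ccr8 were Depdc1b (0.07), Mcm7 (0.07), a subunit of the DNA replication helicase, and Pcyox1l (0.08). Mcm7 stood at 98.4, 167 and 80.0 CPM in negative and 96.3, 144 and 71.9 CPM in positive libraries, highest in number 2 like Ccr8. Closest to Ccr2 were Nsd3 (0.05), Klhl22 (0.06) and Fam160b1 (0.07), and closest to Ccr4 were Bop1 (0.03), Pdap1 (0.05) and Hnrnpll (0.05). Such a search over so many genes always finds near matches, so these are descriptions of 6 libraries.

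Cxcr4, the CXCL12 receptor that holds cells in bone marrow (Entrez 12767, chromosome 1, 128588199 to 128592299), had 16, 7 and 38 counts in Chat negative and 32, 39 and 23 in Chat positive libraries. Its log2 change was 0.62 (SE 0.64, 95% interval -0.89 to 2.13, edgeR adjusted p = 1.00). That interval includes the size of the difference seen for Ccr1. Ccr9, the gut-homing receptor for CCL25 (Entrez 12769, chromosome 9, 123767211 to 123783457), had 12, 14 and 0 counts against 14, 8 and 2. The log2 change of this gene was -0.07 (SE 1.15, adjusted p = 1.00) and had no stable sign. Both passed the low-count filter through libraries of both gates.

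Ccr6 and Cxcr3 did not pass that filter and were not tested. Ccr6, the CCL20 receptor (Entrez 12458, chromosome 17, 8236041 to 8258519), had 0, 10 and 10 counts in Chat negative and 19, 11 and 8 in Chat positive libraries. Cxcr3, the receptor for CXCL9 and CXCL10 (Entrez 12766, chromosome X, 101731535 to 101734147), had 3 counts in Chat negative 2 and 0 in the other 5 libraries. A count of 0 allows up to 3 counts, which is 0.0583 to 0.0811 CPM depending on the library, and this limit covers counting error only.

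**Figure D3:**
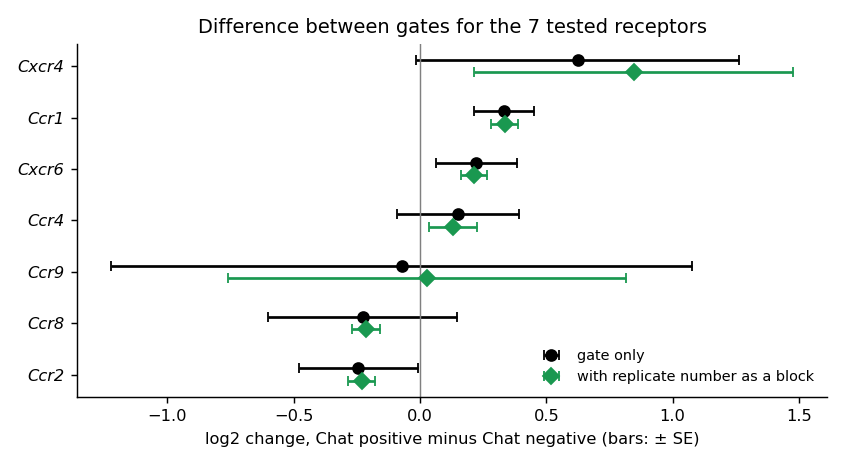
Log2 change of the 7 tested receptors, Chat positive minus Chat negative, with standard errors, from the fit on gate alone (black) and the fit with the replicate number as a block (green). Ccr1 and Cxcr6 lie to the right of 0 and Ccr2 and Ccr8 to the left, the blocked bars of all 4 are short (SE 0.05 to 0.06), and the bars of Ccr9 and Cxcr4 are wide.

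Of the 9 genes, 6 are on chromosome 9, and 4 of those sit in a cluster of receptor genes. Ccr9 opened the cluster at 0.0382 CPM per kilobase, and Cxcr6, which starts 39.3 kilobases further on, stood at 2129. Xcr1 followed at 30.4, Ccr1 at 113.6, Ccr1l1 at 0.601, Ccr3 at 2.76 and Ccr2 at 132.5. Between one of these genes and the next in this order, the ranges over the 6 libraries did not overlap.

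**Figure D4:**
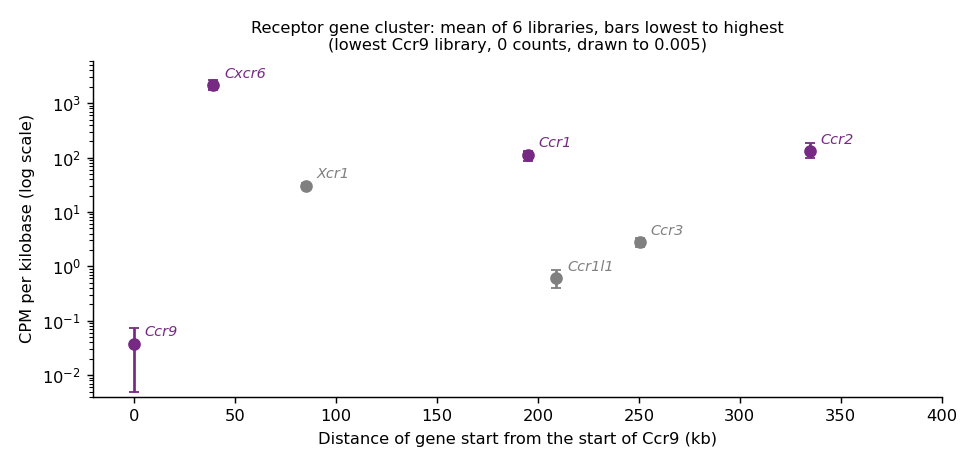
Mean level over 6 libraries, in CPM per kilobase on a log axis, of receptor genes of the chromosome 9 cluster against the distance of each gene's start from that of Ccr9. Bars run from the lowest to the highest library, purple marks are 4 of the 9 receptors and grey marks other receptors of the cluster. Cxcr6 at 2129 and Ccr9 at 0.0382 are 39.3 kilobases apart.

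Promoters of 5 receptors are shown to set the most counted gene beside its near-silent neighbour (Cxcr6 and Ccr9), a pair of receptors high in the number 2 libraries (Ccr8 and Ccr4), and the receptor whose gates did not overlap (Ccr1). Each runs from 250 bases before to 50 bases after the RefSeq start, 5′ to 3′ on the gene's strand, from GRCm38.p6. Windows are chr9:123806227-123806526 for Cxcr6 (plus), chr9:123766961-123767260 for Ccr9 (plus), chr9:120091883-120092182 for Ccr8 (plus), chr9:114496495-114496794 for Ccr4 (minus, a start inside the annotated gene span) and chr9:123968643-123968942 for Ccr1 (minus). Capitals mark letters found on either strand for AGATAA (bound by GATA factors), AGGTCA (ROR factors), TGTGGT (RUNX factors) or TGANTCA (AP-1).
Cxcr6: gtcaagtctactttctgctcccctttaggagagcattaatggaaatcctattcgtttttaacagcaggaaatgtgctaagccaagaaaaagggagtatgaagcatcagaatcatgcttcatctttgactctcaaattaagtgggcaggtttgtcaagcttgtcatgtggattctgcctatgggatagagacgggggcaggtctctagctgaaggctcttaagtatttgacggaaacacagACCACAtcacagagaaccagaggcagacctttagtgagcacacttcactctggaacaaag
Ccr9: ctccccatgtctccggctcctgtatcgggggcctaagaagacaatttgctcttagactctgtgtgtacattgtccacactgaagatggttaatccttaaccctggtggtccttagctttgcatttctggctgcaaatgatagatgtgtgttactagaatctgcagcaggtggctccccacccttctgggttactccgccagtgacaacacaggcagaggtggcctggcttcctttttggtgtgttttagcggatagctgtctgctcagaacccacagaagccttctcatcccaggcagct
Ccr8: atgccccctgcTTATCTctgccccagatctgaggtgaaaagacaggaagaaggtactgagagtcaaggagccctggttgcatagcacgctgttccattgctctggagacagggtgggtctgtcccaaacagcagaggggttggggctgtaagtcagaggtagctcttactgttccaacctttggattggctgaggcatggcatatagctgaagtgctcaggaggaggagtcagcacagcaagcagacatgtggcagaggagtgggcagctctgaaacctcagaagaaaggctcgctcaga
Ccr4: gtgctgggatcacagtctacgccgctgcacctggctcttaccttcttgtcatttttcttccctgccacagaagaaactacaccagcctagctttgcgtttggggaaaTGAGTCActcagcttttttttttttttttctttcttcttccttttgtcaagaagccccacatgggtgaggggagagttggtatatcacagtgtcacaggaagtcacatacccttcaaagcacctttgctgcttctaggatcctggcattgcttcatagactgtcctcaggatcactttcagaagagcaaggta
Ccr1: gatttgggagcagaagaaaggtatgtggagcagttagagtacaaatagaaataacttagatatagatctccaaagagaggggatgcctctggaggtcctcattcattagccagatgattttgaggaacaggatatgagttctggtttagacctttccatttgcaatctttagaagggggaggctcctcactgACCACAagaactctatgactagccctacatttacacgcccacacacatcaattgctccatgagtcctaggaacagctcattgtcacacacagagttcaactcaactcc
A RUNX match starts at -10 in Cxcr6 and at -58 in Ccr1, counted from the RefSeq start, a GATA match at -239 in Ccr8, and an AP-1 match at -143 in Ccr4, and none overlapped another. Ccr9 held none of these letters. Over 22271 promoter windows of the same length, 9.63% held the GATA, 14.7% the ROR, 14.8% the RUNX and 7.24% the AP-1 letters, so single matches are common. They are descriptions of sequence and not of binding.

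Among 15 other chemokine receptors, 10 could be tested and none passed in edgeR with or without the block. Their log2 changes had a median of -0.02, beside 0.15 for the 7 tested members of the set of 9 and 0.00 for all genes. Xcr1, known from cross-presenting dendritic cells, stood at 131 ± 8.37 CPM in negative and 140.0 ± 9.27 in positive libraries (SD, n = 3 each). Of the dendritic markers, Clec9a and Siglech had 0 counts in all 6 libraries and Flt3 at most 1, while Cd209a ranged from 5 to 346 counts and was low in both number 2 libraries. Their part in the Xcr1 values was not tested. Ccr3, the eosinophil eotaxin receptor, stood at 9.12 ± 1.57 and 8.95 ± 1.26 CPM, and Ccr10 at 7.45 ± 5.10 and 7.69 ± 7.35.

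Of 19 listed ligands of the 9 receptors, 7 had 0 counts in every library (Ccl2, Ccl7, Ccl8, Ccl12, Ccl22, Cxcl9 and Cxcl12), and 7 could be tested, none passing in edgeR with or without the block, with a median log2 change of 0.20. Mif, a cytokine that also engages CXCR4, was by far the most counted of them and stood at 152 ± 19.9 CPM in negative and 144 ± 17.7 in positive libraries. Ccl25, the Ccr9 ligand, stood at 2.69 ± 0.630 and 2.93 ± 1.04 CPM, Ccl5 at 1.69 ± 0.322 and 1.96 ± 2.16, and Cxcl16, the Cxcr6 ligand, at 0.797 ± 0.515 and 0.514 ± 0.194.

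Signal transducers below the receptors ranged from Rgs16, at 0.490 CPM in negative and 0.653 in positive libraries, to Coro1a. All 33 listed genes could be tested, 11 with a log2 change above 0 and 22 below, with a median of -0.05 and none past the threshold in edgeR. The actin regulator Coro1a stood at 1877 ± 132 CPM in negative and 1848 ± 124 in positive libraries, and the small GTPases Rac2 and Cdc42 at 1394 ± 91.1 and 1252 ± 155.5 and at 1312 ± 102 and 1268 ± 92.7. Gnai2, the inhibitory G protein subunit to which chemokine receptors couple, stood at 1353, 1306 and 1304 CPM in negative libraries 1 to 3, against 1303, 1202 and 1114 in positive libraries 1 to 3. The gates did not overlap, which held for 4 of the 33 genes (1 with Chat positive higher and 3 with it lower), beside 8.14% of all genes tested. For Gnai2 the lowest Chat negative library (1304) and the highest Chat positive one (1303) were nearly equal. The log2 change of this gene was -0.13 (SE 0.10, edgeR adjusted p = 1.00).

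Rgs1, which shuts off Gi signals from chemokine receptors, stood at 413, 341.5 and 546 CPM in negative libraries 1 to 3, against 564, 438 and 677 in positive libraries 1 to 3. Chat positive was higher for 3 of 3 numbers, with overlap between the gates. Its log2 change was 0.37 (SE 0.22) and its edgeR adjusted p was 1.00. With the block Rgs1 rose by 0.37 (SE 0.05, edgeR adjusted p = 0.0419), the sole call among the 33. DESeq2 with the block also called Rgs1 (log2 change 0.36, adjusted p = 1.9e-06), in a fit that called 476 genes. The call was not kept by limma-voom with the block (adjusted p = 0.0856) or by the blocked edgeR fit without robust dispersions (0.104). Nor was it kept by the edgeR block without the libraries of number 1, which called 0 genes.

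Other homing and egress receptors gave no call in edgeR, with or without the block, among 12 tested of 17 listed, and their median log2 change was -0.11. Selplg, which encodes the selectin ligand PSGL-1, stood at 791 ± 127 CPM in negative and 693 ± 124 in positive libraries. Its adjusted p was 1.00 in edgeR, 0.128 with the block, and 0.0231 in DESeq2 with the block (log2 change -0.20). Ltb4r1, a leukotriene B4 receptor, stood at 418 ± 54.9 and 398 ± 34.1 CPM. Cd69, which holds lymphocytes in tissue, stood at 398 ± 119 and 405 ± 130.2 CPM, and Gpr183, an oxysterol receptor, at 184.5 ± 52.0 and 166 ± 44.4.

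**Figure D5:**
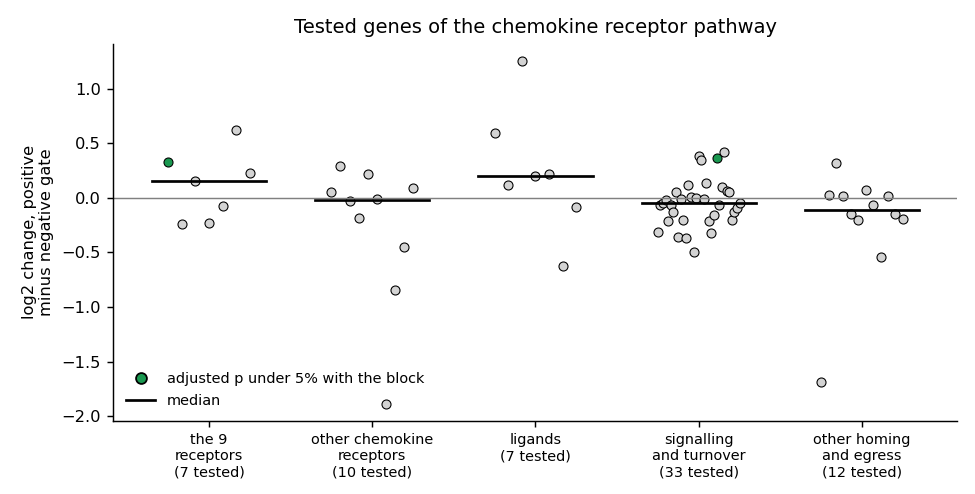
Log2 change, Chat positive minus Chat negative, of every tested gene of 5 lists, with the median of each list as a bar. Green points passed the 5% threshold with the replicate number as a block, which holds for Ccr1 and Rgs1, and the medians lie between -0.11 and 0.20.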

How the data were processed

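RNA-seq of 3 Chat negative and 3 Chat positive sorted mouse ILC2 samples was used, grouped by their labels. Per the labels, a SMARTer Ultra Low Input RNA kit (Clontech) was used for library preparation. The authors deposited raw read counts per gene. CASAVA 1.8.2, STAR 2.3.0 and mm10 are named per the submitters' processing notes; the counting program and its strand setting are not stated there or in the labels. Of 27179 gene IDs, 25275 matched the RefSeq table and 1904 did not (at most 0.222% of a library's counts).

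Counts were filtered with filterByExpr, scaled by TMM and tested with edgeR 4.0.16 (robust quasi-likelihood test, R 4.3.3) over all 12967 genes kept, with a Benjamini-Hochberg threshold of 5%. CPM use the TMM-scaled totals, and levels per kilobase use the longest GENCODE transcript. Alternatives were other scalings and filters, limma 3.58.1 (voom), DESeq2 1.42.0, the replicate number as a block, and leaving out libraries. The procedure was tested on simulated counts that held a difference between gates and none between replicate numbers. That test therefore does not cover the spread between numbers seen here. Same-numbered libraries deviated together, with correlations of 0.385, 0.776 and 0.521 for numbers 1, 2 and 3, so the numbers were treated as pairs. However, Chat negative 1 correlated slightly more with Chat positive 3 (0.42), and Chat negative 3 also correlated with Chat positive 1 (0.286). Deviations were centred within each gate, so a number 2 unlike the others can by itself raise every correlation among numbers 1 and 3. Those correlations therefore cannot show how the libraries of numbers 1 and 3 pair. No libraries within a gate were duplicates.

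The 9 receptors and the gene lists were chosen with earlier results of these data known. Besides the 9 and Chat, the rule named the 4 most abundant genes of each pathway list, those passing the test with or without the block, the 2 most abundant of each marker list, and, for the 3 most variable receptors averaging at least 10 CPM, the 3 genes of most similar profile. Ccr7, other cluster genes and single marker genes were named in addition, after their values were seen. Some genes the rule named are not reported here.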

Additional observations from a re-analysis of the deposited data

How the results depend on the processing

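No receptor passed the threshold in edgeR under RLE, upper-quartile or library-size scaling, without a low-count filter or with a stricter one, or without any 1 library. The replicate block raised the genes called from 1 to 44 and the receptors called from 0 to 1 (Ccr1), and Chat then stood at 3.24 (adjusted p = 0.0961), but limma-voom with the block and the blocked fit without robust dispersions each called 1 gene and 0 receptors. DESeq2 called 4 of the 12967 genes kept by the filter, and with the block 476 genes and 4 receptors. With the block it gave no adjusted p for Ccr9 or Cxcr4. Leaving out 1 library gave 0 to 1 genes called, 1 to 2 receptors with gates that did not overlap, and a Chat log2 change of 3.09 to 3.46, whose adjusted p was 0.191 without Chat negative 1, 0.198 without Chat negative 3, 0.247 without Chat positive 1 and 0.127 without Chat positive 3. Further settings were chosen after seeing the data. Without both libraries of number 1, 0 genes were called with or without the block, and Chat stood at 3.08, or 3.10 with the block. Without number 2, 2 genes were called (3 with the block) and 2 receptors did not overlap. Without number 3, 0 genes were called, 2 receptors did not overlap and Chat stood at 3.06. The block then called 709 genes, 1 of them a receptor. Gates of fewer libraries separate more easily. For all settings with libraries left out, the shares of all genes called or without overlap are not given. These receptor counts can therefore not be read as a gain. Ccr9 changed sign with the block, with or without robust dispersions (0.028), DESeq2 with the block (0.45), limma-voom (0.59, or 0.20 with the block), and without number 2 (0.56, or 0.84 with the block). Ccr10 changed sign with the block, with or without robust dispersions (-0.14), DESeq2 with the block (-0.16) and limma-voom (-0.08), as did Ccl5 (-0.39, -0.48 and -0.65). Leaving out 1 library moved these log2 changes across 0: Ccr8 -0.58 to 0.17, Ccr4 -0.12 to 0.33, Ccr9 -0.93 to 0.44, Ccr3 -0.11 to 0.12, Ccr10 -1.10 to 0.73, Mif -0.15 to 0.031, Ccl25 -0.14 to 0.37, Ccl5 -1.21 to 0.72, Cxcl16 -0.99 to 0.039, Coro1a -0.071 to 0.037, Cdc42 -0.11 to 0.007, Cd69 -0.19 to 0.27 and Gpr183 -0.36 to 0.047. Without changing sign, Ccr2 ranged from -0.44 to -0.04 (the latter without Chat negative 3), Cxcr6 from 0.08 (without Chat positive 3) to 0.34, and Cxcr4 from 0.22 (without Chat negative 2) to 1.43 (without Chat negative 3). The cause was not tested. Intervals of Ccr9 and Cxcr4 are wide, and low counts kept Ccr6 and Cxcr3 from being tested.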
